A study of Sus scrofa with 10 samples.

Results

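Peroxisomal fatty acid oxidation was followed in pig liver through a list of 7 genes: *ABCD3*, *ACOX2*, *EHHADH*, *HSD17B4*, *ACAA1*, *SCP2* and *CRAT*. A gene was measured by the probe sets that the platform annotation tied to that gene alone, under its current symbol where the Entrez ID led to one and otherwise under the platform's symbol, and 6 of the 7 had at least 1, with 9 probe sets in all, of 6765 genes and 23999 porcine probe sets on the array. No probe set was tied to *EHHADH* by symbol or Entrez ID, so this gene, whose product is the L-bifunctional enzyme of the pathway, was not analysed here. All 9 probe sets had a mean log2 signal of at least 4 over the arrays, the minimum for a test, which left 6 of these genes among the 4730 tested.

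The animals were 10 backcross females of mainly Landrace and partly Iberian descent, 1 liver RNA and 1 Affymetrix GeneChip Porcine array each. The 5 females of the H group came from the high end of the first principal component of carcass and intramuscular fatty acid traits, with more polyunsaturated fatty acids in the *Longissimus dorsi* muscle, and the 5 of the L group from its low end, with more saturated and monounsaturated fatty acids. All came from a cross of Guadyerbas line Iberian boars with Landrace sows, and shared one intensive housing and feeding regime. The groups were chosen for the composition of muscle fat and not for a liver trait, and some animals of opposite groups were sibs, but the labels do not name them and kinship was not modelled.

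Peroxisomes shorten fatty acids that mitochondria handle poorly, such as very long chain and methyl-branched ones, and the side chain of bile acid precursors. The acyl-CoA is carried in by an ABC half-transporter, oxidised with release of hydrogen peroxide, hydrated and dehydrogenated by a bifunctional enzyme, and split by a thiolase. The shortened chains and acetyl units leave as carnitine esters, to be oxidised further in mitochondria. In rodents many of these genes are induced through the nuclear receptor PPARA.

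Signals were log2 intensities after background adjustment and normalization by the authors, and the lowest value of the table was 2.19. The arrays had medians from 3.78 to 3.85 and correlated with each other between 0.966 and 0.989 over the tested genes, and no 2 arrays held identical values. The value of a gene was the mean of its probe sets, and because probes differ in brightness, levels were compared between animals and not between genes. All 12 listed hepatocyte markers were tested, 9 of them with a lower mean in H. Their mean level per gene was between 14.65 and 14.81 in H livers and between 14.71 and 14.80 in L livers. The 5 skeletal muscle markers with a probe set lay within 0.5 of the lowest value on every array. Of 7 Kupffer cell and macrophage markers tested, 6 had a lower mean in H, with a mean level per gene from 9.14 to 9.84 in H livers and from 9.26 to 9.78 in L livers. Of the endothelial markers 5 were tested, all with a lower mean in H (level 6.81 to 7.28 in H livers and 6.68 to 7.39 in L livers), and of the stellate cell markers 7, 5 of them with a higher mean in H (level 7.50 to 7.62 in H livers and 7.16 to 7.88 in L livers). No tested marker of these cells, or of cholangiocytes, adipocytes or blood cells, reached an unadjusted p under 0.05 in limma. Over all tested genes, 62.8% had a lower and 37.2% a higher mean in H. In RNA of whole liver, fewer cells of a type and less RNA per cell cannot be told apart.

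In none of the measured peroxisomal oxidation genes was a difference between H and L livers found that passed the test. The 3 genes *ACOX2*, *HSD17B4* and *SCP2* had a higher mean in H, and *CRAT*, *ACAA1* and *ABCD3* a lower one, where 37.2% of all tested genes had a higher and 62.8% a lower mean in H, with differences from -0.31 for *CRAT* to 0.30 for *ACOX2* on the log2 scale. With limma over all genes (two-sided, Benjamini-Hochberg), 0 of the 6 genes had an adjusted p under 0.05, as did 0% of the 4730 genes tested, and the adjusted p of the 6 lay between 0.985 and 0.999. At an unadjusted p under 0.05 there were 0 of the 6, against 2.64% of all genes (0.803% higher and 1.84% lower in H). In none of the 6 were the values of H and L free of overlap, as they were in 0.359% of all genes. The median difference H minus L was -0.08 over the 6 genes and -0.04 over all genes, and the median size of the difference was 0.18 over the 6 genes and 0.10 over all genes. In 4 of the 6 genes the difference was smaller than the SD between animals of 1 group.

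**Figure D1:**
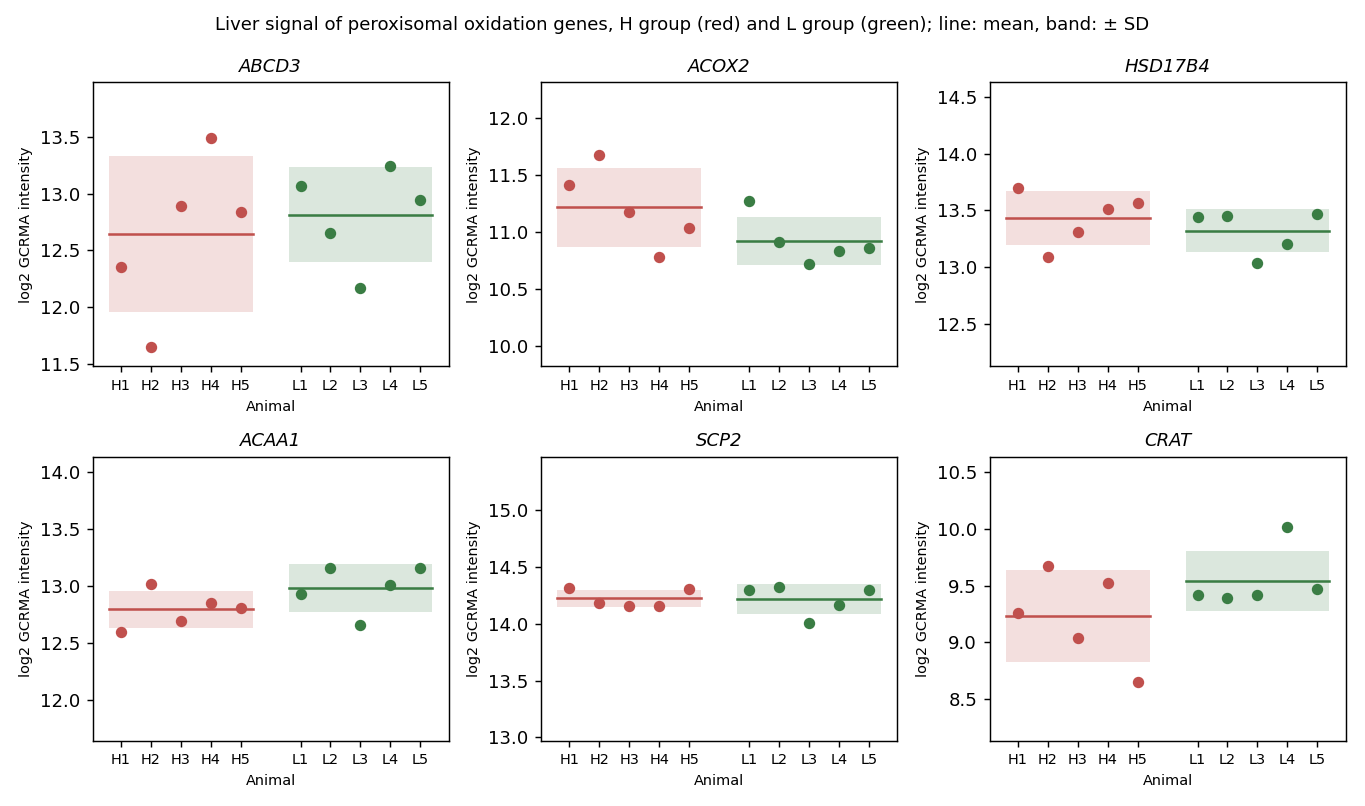
Log2 GCRMA intensity (y axis) of the 6 measured genes in each of the 10 animals (x axis), with the mean (line) and SD (band) of the H group (red, n = 5) and the L group (green, n = 5). Every panel spans the same number of log2 units; the values of H and L overlap in all 6 panels, *ABCD3* spreads most, from 11.65 in H2 to 13.49 in H4, and *SCP2* least, from 14.01 in L3 to 14.32 in L2.

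**Figure D2:**
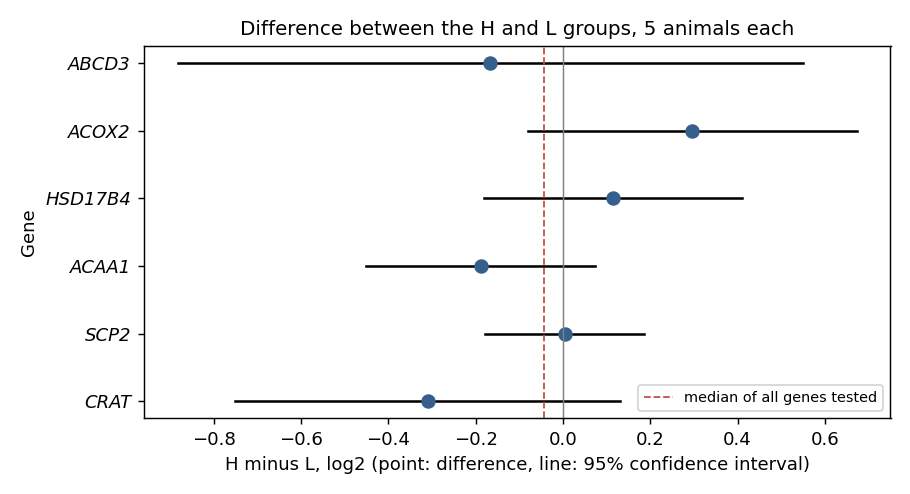
Difference H minus L (x axis, log2) of the 6 genes (y axis), with limma's 95% confidence interval over 5 animals per group, and the median over all tested genes as a dashed line. All 6 intervals include 0; the widest is that of *ABCD3*, from -0.88 to 0.55, and the narrowest that of *SCP2*, from -0.18 to 0.19.

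*ABCD3*, also known as PMP70, is the transporter of the peroxisomal membrane that brings in branched-chain and dicarboxylic acyl-CoAs and bile acid precursors, and it varied most of the 6 genes. Its signal was 12.36, 11.65, 12.90, 13.49 and 12.84 in H1 to H5, against 13.06, 12.65, 12.17, 13.24 and 12.94 in L1 to L5. The H group held both the lowest animal, H2, and the highest, H4, and the L values lay inside that range. Lowest and highest animals were 1.84 log2 units apart, a factor of 3.59. The SD between animals of 1 group was 0.57, and 6.34% of all tested genes had a larger one. Group means were 12.65 ± 0.69 for H and 12.81 ± 0.42 for L (SD, n = 5 each), which gave H minus L of -0.17 (standard error 0.32, 95% confidence interval -0.88 to 0.55, limma adjusted p = 0.985). Without H2 the difference was 0.08.

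The 3 probe sets of *ABCD3* gave a broadly similar order of animals, with rho from 0.782 to 0.964. Ssc.11816.1.A1_at and Ssc.14114.1.A1_at had an r of 0.975 over the 10 animals, and Ssc.11816.2.A1_a_at had an r of 0.909 with the one and 0.828 with the other, while the median over 1693 such combinations of probe sets sharing a symbol was 0.471. All 3 were lowest in H2 and highest in H4. They departed most in H1, where Ssc.11816.1.A1_at read 11.76 and Ssc.14114.1.A1_at read 11.82, below their means of 12.25 and 12.47, and Ssc.11816.2.A1_a_at, with 13.50, was at its mean of 13.48. L4 came next, at 12.85 on Ssc.11816.1.A1_at and 13.19 on Ssc.14114.1.A1_at, well above their means, and at 13.69 on Ssc.11816.2.A1_a_at, closer to its own. The difference H minus L was -0.26 and -0.32 for the first named probe sets and 0.08 for Ssc.11816.2.A1_a_at, the brightest of the 3, so its sign depended on the probe set.

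*ACOX2* encodes the acyl-CoA oxidase that in humans acts on branched-chain acyl-CoAs and bile acid intermediates, the step that releases hydrogen peroxide. Its signal was 11.41, 11.68, 11.17, 10.78 and 11.04 in H1 to H5, against 11.28, 10.92, 10.71, 10.83 and 10.86 in L1 to L5. The highest animals were H2 and H1, while H4 lay below 4 of the 5 L animals, and 4 of the 5 H values were above the median of L. The means were 11.22 ± 0.35 for H and 10.92 ± 0.21 for L (SD over 5 animals each), with H minus L at 0.30 (standard error 0.17, 95% confidence interval -0.08 to 0.67, limma unadjusted p = 0.111 and adjusted p = 0.985; exact permutation test, two-sided, p = 0.143). Without H2 it was 0.18, and without H4 0.41 (limma unadjusted p = 0.0274 and adjusted p = 0.972). A larger difference was found for 8.82% of all genes.

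The dimmer probe set of *ACOX2*, Ssc.12904.1.A1_at, spread more widely than the brighter one, Ssc.16577.1.A1_at. Ssc.12904.1.A1_at averaged 9.41 ± 0.53 for H and 8.99 ± 0.29 for L, and Ssc.16577.1.A1_at 13.02 ± 0.17 for H and 12.84 ± 0.21 for L (SD over 5 animals each). Both had a higher mean in H, by 0.42 (standard error 0.25) and 0.17 (standard error 0.12), and both were highest in H2. They correlated with an r of 0.753 over the 10 animals. They lay on opposite sides of their means in L2, which was at 8.79 on Ssc.12904.1.A1_at, next to the lowest animal, and at 13.04 on Ssc.16577.1.A1_at, above its mean.

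**Figure D3:**
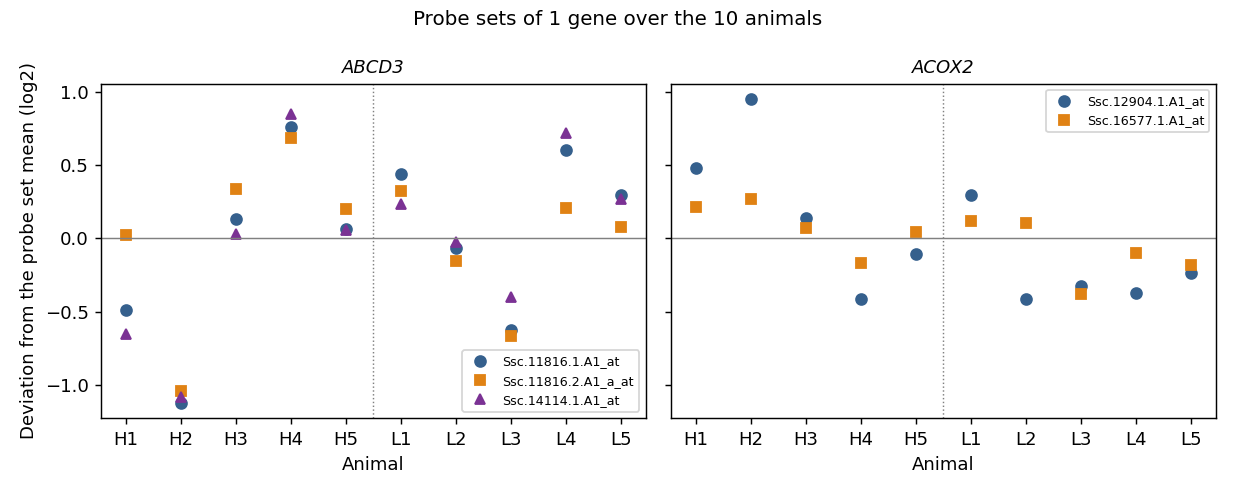
Deviation of each probe set from its own mean over the 10 animals (y axis, log2) by animal (x axis, H left and L right of the dotted line) for the 3 probe sets of *ABCD3* and the 2 of *ACOX2*. The symbols of *ABCD3* lie farthest apart in H1 and next in L4, with H2 lowest and H4 highest; those of *ACOX2* are farthest apart in H2, where both are at their highest.

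The animals with the highest *ACOX2* also had the largest values of a measure that rises with RNA degradation. The array carries controls for both ends of the *GAPDH* transcript, and degraded RNA gives relatively less signal at the 5' end. The 3' minus 5' difference was 2.08, 2.39, 1.70, 1.86 and 1.76 in H1 to H5, against 2.70, 1.68, 1.72, 1.86 and 1.98 in L1 to L5. The group means were close, 1.96 ± 0.28 for H and 1.99 ± 0.42 for L (SD over 5 animals each), and the 3 animals with the largest difference, L1, H2 and H1, were also the 3 with the highest *ACOX2*. Over the 10 animals r was 0.651 (permutation test, p = 0.0726, adjusted over the 6 genes 0.436) and rho 0.491 (permutation test, p = 0.158, adjusted 0.920), and r was 0.395 without H2 and L1. For the other 5 genes r lay between -0.18 for *ABCD3* and 0.28 for *SCP2*. With this control difference as a covariate, the H minus L of *ACOX2* was 0.32 (standard error 0.12, limma unadjusted p = 0.0269 and adjusted p = 0.969).

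*HSD17B4* encodes the D-bifunctional protein, which carries out the hydration and dehydrogenation steps for straight and branched chains. It measured 13.70, 13.09, 13.31, 13.51 and 13.57 in H1 to H5, against 13.44, 13.45, 13.04, 13.21 and 13.47 in L1 to L5. H1, H5 and H4 were above every L animal, and H2 was lower than 4 of them. The means were 13.44 ± 0.24 for H and 13.32 ± 0.19 for L (SD over 5 animals each), with H minus L at 0.11 (standard error 0.13, 95% confidence interval -0.18 to 0.41, limma adjusted p = 0.985). It was 0.04 without L3, 0.05 without H1 and 0.20 without H2.

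*ACAA1* encodes the thiolase that cleaves straight-chain substrates. Its probe set read 12.60, 13.02, 12.69, 12.85 and 12.81 in H1 to H5, against 12.93, 13.16, 12.66, 13.01 and 13.16 in L1 to L5. Only H2 exceeded the median of L, and L3 was the 1 L animal below the median of H. The means were 12.79 ± 0.16 for H and 12.98 ± 0.21 for L (SD over 5 animals each), with H minus L at -0.19 (standard error 0.12, 95% confidence interval -0.45 to 0.07, limma unadjusted p = 0.139 and adjusted p = 0.985; exact permutation test, two-sided, p = 0.159). With 1 animal left out at a time the difference ran from -0.27 without L3 (limma unadjusted p = 0.0257 and adjusted p = 0.997) to -0.14 without H1 (limma unadjusted p = 0.282).

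The gene *SCP2* gives both a thiolase for branched-chain and bile acid intermediates and, from another promoter, the smaller sterol carrier protein. Which of these transcripts its single probe set reads was not tested. The signal was 14.31, 14.18, 14.16, 14.16 and 14.31 in H1 to H5, against 14.30, 14.32, 14.01, 14.17 and 14.30 in L1 to L5. It was the steadiest of the 6 genes, with an SD between animals of 1 group of 0.11, smaller than in 91.1% of all genes, and L3 was the lowest animal. Its signal was also brighter than that of 99.1% of all tested genes, and whether such brightness narrows the spread was not tested. The means were 14.22 ± 0.08 for H and 14.22 ± 0.13 for L (SD over 5 animals each), and the difference of 0.0039 had a 95% confidence interval from -0.18 to 0.19 (limma adjusted p = 0.999).

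*CRAT*, carnitine acetyltransferase, joins acetyl groups to carnitine in peroxisomes and mitochondria, and it had the largest difference of the 6 genes. It measured 9.26, 9.67, 9.04, 9.53 and 8.65 in H1 to H5, against 9.41, 9.39, 9.42, 10.01 and 9.47 in L1 to L5. H5 was the lowest animal and L4 the highest, while the other 4 L animals lay within a narrow band that H1 and H3 fell below and H2 and H4 exceeded. The means were 9.23 ± 0.40 for H and 9.54 ± 0.27 for L (SD over 5 animals each), with H minus L at -0.31 (standard error 0.20, 95% confidence interval -0.75 to 0.13, limma unadjusted p = 0.150 and adjusted p = 0.985; exact permutation test, two-sided, p = 0.206). The difference was -0.16 without H5 and -0.19 without L4. A difference of larger size was found for 8.06% of all genes.

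The 6 genes showed no common course from animal to animal. Of their 15 combinations taken in pairs, 9 had a positive and 6 a negative Pearson's r over the 10 animals, with a median of 0.05, against 0.03 over all 11174628 combinations of tested genes. The median size of r was 0.31 over the 15 and 0.27 over all. With each group centred on its mean, the median r of the 15 was 0.17. After Benjamini-Hochberg adjustment over the 15, 0 had a permutation p under 0.05 for r or for rho, and 1 had an unadjusted p of r under 0.05.

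**Figure D4:**
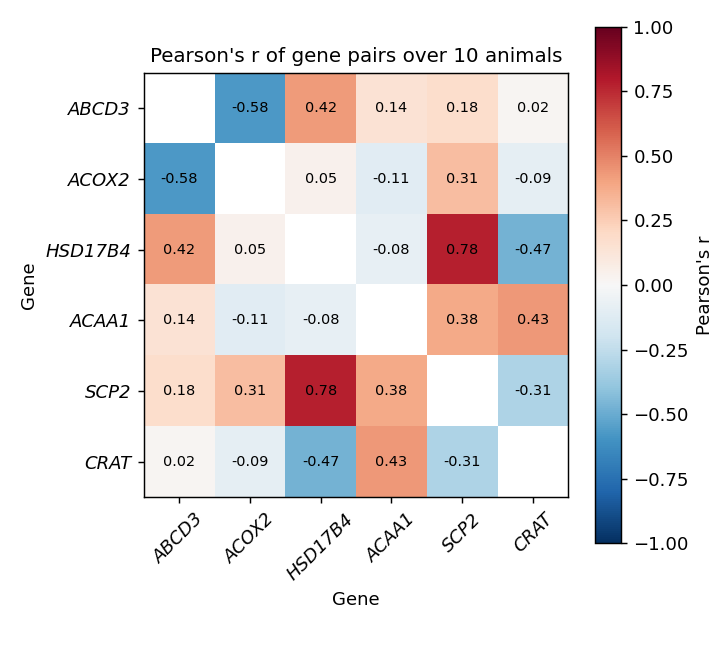
Pearson's r over the 10 animals (colour and printed value) for each combination of the 6 genes, which are named on both axes. The highest value is that of *HSD17B4* with *SCP2*, 0.78, and the lowest that of *ABCD3* with *ACOX2*, -0.58.

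The closest combination was *HSD17B4* with *SCP2*, the bifunctional protein and the branched-chain thiolase. Its r was 0.780 (permutation test, p = 0.0105, adjusted over the 15 combinations 0.157) and its rho 0.576 (permutation test, p = 0.0891, adjusted 0.580). L3 was lowest and H1 among the highest in both, and r was 0.618 without H2 and L3, the animals farthest from the median of *HSD17B4*. With each group centred, r was 0.808. Of all combinations of tested genes, 1.03% had an r at least as high.

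The most opposed combination was the transporter *ABCD3* with the oxidase *ACOX2*, with an r of -0.576 (permutation test, p = 0.0995, adjusted 0.696) and a rho of -0.394 (permutation test, p = 0.263, adjusted 0.658). H2, the animal with the lowest *ABCD3*, had the highest *ACOX2*, and without H1 and H2, the animals farthest from the median of *ACOX2*, r was 0.148. Without H2 and L3, the animals farthest from the median of *ABCD3*, r was -0.652, and with 1 animal left out at a time it ran from -0.841 without L3 to -0.187 without H2, so its size depended on single animals and H2 in particular. *CRAT* ran against *HSD17B4* with an r of -0.473 (permutation test, p = 0.161) and with *ACAA1* at 0.434 (permutation test, p = 0.219), both with an adjusted p of 0.696.

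**Figure D5:**
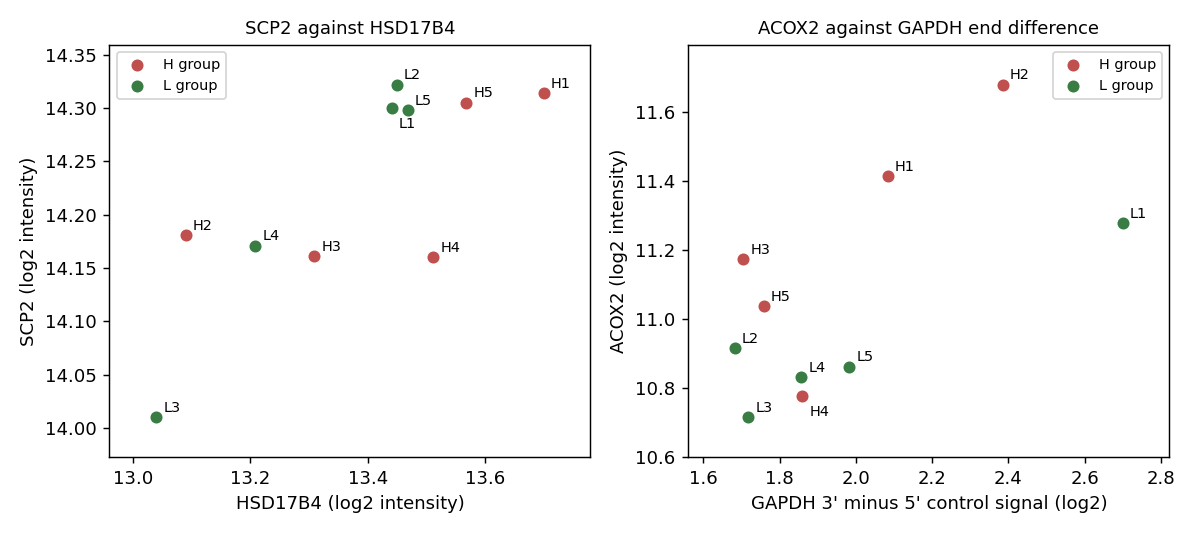
Left, *SCP2* (y axis) against *HSD17B4* (x axis), both log2 intensity; right, *ACOX2* (y axis, log2 intensity) against the *GAPDH* 3' minus 5' control difference (x axis, log2), 1 labelled point per animal, H in red and L in green. L3 lies lowest on both axes of the left panel (r = 0.780); in the right panel L1, H2 and H1 lie farthest to the right and highest (r = 0.651).

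A single animal, L3, stood at the low end of several genes at once. L3 had the lowest value of the L group in 5 of the 6 genes, all but *CRAT*, and the lowest of all 10 animals in 3, *ACOX2*, *HSD17B4* and *SCP2*. Over all tested genes L3 was lowest of its group in 18.5% and lowest of all animals in 9.33%, and it was the highest of all animals in 19.6%, the largest such share of the 10 arrays. Scaled to the SD of each gene, the mean over the 6 genes was -1.15 in L3 and lay between -0.37 and 0.17 in the 5 H animals and between 0.20 and 0.44 in the other 4 L animals. L1 was above the gene mean in 6 of 6 genes. H2 combined the lowest *HSD17B4* and *ABCD3* of the H group with the highest *ACOX2*, *ACAA1* and *CRAT*.

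The rest of the peroxisomal pathway also held no gene whose difference passed the test. Of 28 listed genes of peroxisomal oxidation outside the 7, 16 were tested, 7 with a higher and 9 with a lower mean in H. Their median difference was -0.01, and 0 had an unadjusted p under 0.05. To set beside this and the lists below, 37.2% of all tested genes had a higher and 62.8% a lower mean in H. An unadjusted p under 0.05 was found in 2.64% of all tested genes. The genes with a higher mean include *ACOT8*, whose signal stayed between 4.376 and 4.38 on all arrays (H minus L 0.0009). *ACOX3*, another branched-chain oxidase, had the difference of greatest size among the 16 tested, -0.56 (standard error 0.33, limma adjusted p = 0.985), with values from 4.80 to 6.61 in H and from 5.94 to 6.97 in L. *AMACR*, the racemase that prepares branched-chain and bile acid intermediates for *ACOX2*, had means of 10.30 ± 0.94 for H and 10.25 ± 0.41 for L, and *PHYH*, which starts the alpha-oxidation of phytanic acid, 13.82 ± 0.16 for H and 13.69 ± 0.26 for L (SD over 5 animals each).

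Peroxisome assembly was read through 7 tested genes of 18 listed. Of these, 4 had a higher and 3 a lower mean in H, with a median difference of 0.03. At an unadjusted p under 0.05 in limma there were 2 of the 7, both lower in H. Over all tested genes the share was 2.64%, with 1.84% lower in H. An adjusted p under 0.05 was reached by 0 of the 7. *PEX16*, which takes part in building the peroxisomal membrane, measured 8.01 ± 0.29 for H and 8.39 ± 0.22 for L (SD over 5 animals each), so that H minus L was -0.37 (standard error 0.15, limma unadjusted p = 0.0351 and adjusted p = 0.985). *PEX2*, a ligase of the import machinery, measured 5.97 ± 0.09 for H and 6.25 ± 0.27 for L (SD over 5 animals each), so that H minus L was -0.29 (standard error 0.13, limma unadjusted p = 0.0430 and adjusted p = 0.985). For *PEX16* the H animals ran from 7.75 to 8.36 and the L animals from 8.17 to 8.67, so the groups overlapped, as they did for *PEX2*. *PEX14* was at the lowest value of the table on all 10 arrays.

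Of 23 other peroxisomal enzymes listed, 13 were tested, 6 with a higher and 7 with a lower mean in H, and 0 had an unadjusted p under 0.05. *CAT*, catalase, which breaks down the hydrogen peroxide that the oxidases release, read 15.20 ± 0.14 for H and 15.21 ± 0.13 for L (SD over 5 animals each), where the highest signals of the arrays lay between 15.86 and 16.00. The enzymes of mitochondrial beta-oxidation, the main route for common chain lengths, were tested in 19 of 20 listed genes, 9 with a higher and 10 with a lower mean in H. Their median difference was -0.04, the same as that of all genes to 2 decimals, and 0 had an unadjusted p under 0.05.

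*PPARA* itself was near the lowest value of the table, with a mean of its 2 probe sets from 2.19 to 2.90 in H and from 2.37 to 2.56 in L, and was not tested, and *RXRA*, which codes for its partner receptor, was at the lowest value on all 10 arrays. Signals this low do not tell a scarce transcript from a probe set that fails to read it, and which of these held was not tested. Of 30 genes listed as PPARA, its partners and its known targets, *ACAA1* and *EHHADH* among them, 17 were tested, 8 with a higher and 9 with a lower mean in H, with a median difference of -0.10 and 0 at an unadjusted p under 0.05. Some of the 17 were also counted above under mitochondrial beta-oxidation or other peroxisomal oxidation, so these lists overlap.

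The genes most like the mean of the 6, each first scaled to its own mean and SD, were *ZDHHC15*, *SERHL2*, *LOC102163508*, *F12*, *GTPBP1*, *FAM111B*, *CKMT2*, *UBE2R2*, *MOCS3* and *OGFOD3*, with a Pearson's r over the 10 animals from 0.921 for *ZDHHC15* to 0.838 for *OGFOD3*. Their rho was lower in most, from 0.522 for *FAM111B* to 0.891 for *LOC102163508*. L3 stood far below the other animals in this mean, at -1.15, and how far these r rest on L3 was not tested. *ABCD3* was followed most closely by *PCID2* (r = 0.908), *PDGFRL* (0.875) and *NID2* (0.858), and *ACOX2* by *PIM3* (0.928), *RAB11B* (0.911) and *ERCC8* (0.886). *HSD17B4* was followed by *SUCLG2* (r = 0.966), a subunit of the mitochondrial succinyl-CoA ligase, *MAL2* (0.938) and *THNSL1* (0.928). *ACAA1* had lower values, 0.842 with *FKBP1A*, 0.822 with *PRSS23* and 0.780 with *SDC1*. *SCP2* was followed by *ABCB11* (r = 0.920), the export pump for bile salts, *PCCA* (0.914), a subunit of propionyl-CoA carboxylase, and *LOC100518620* (0.902), and *CRAT* by *PSMG1* (0.913), *DHX30* (0.896) and *PM20D2* (0.888). These r were picked as the highest over all other tested genes and are a description without a test, and no gene appeared in more than 1 of these lists.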

How the data were processed

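The arrays were read by the authors with GCOS and summarised with GCRMA, and the deposited table holds 1 log2 intensity per probe set and array, with RMA also listed in the submitters' processing notes and versions not given in the sources used here. Of 24123 probe sets, 124 controls were left out. Of the rest, 10069 carried 1 symbol (9961 named through the Entrez ID in a RefSeq table of Sscrofa11.1, 108 under the platform's name), 198 several and 13732 none. A gene's value was the mean of its probe sets whose own mean reached 4. The contrast H minus L was fitted in limma 3.58.1 under R 4.3.3, two-sided and without covariates, by lmFit and eBayes with Benjamini-Hochberg adjustment over all genes, and the code was checked on simulated data. Standard errors and confidence intervals are limma's. Correlations used scipy 1.17.1 with 100000 permutations, and exact tests all 252 splits, whose smallest two-sided p is 0.00794.

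The genes and lists were chosen with earlier results of these data known. The text names the 7 genes, *PPARA* and *CAT*, up to 3 genes of each list at an unadjusted p under 0.05, and the genes of highest r. *ACOX3*, *ACOT8*, *AMACR*, *PHYH*, *PEX14* and *RXRA* were added after their values were seen. The labels name no hybridisation batch, and the number of arrays limits the precision. Alternatives were other filters, normalizations, weights, covariates, priors and probe set rules, a block by animal number, and leaving out each animal.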

Additional observations from a re-analysis of the deposited data

Results flagged for a closer look

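*CRAT* in L4, at 10.01, lay apart from the other L animals, of which the next highest was L5 at 9.47: this gap made up 0.878 of the distance between the highest and lowest L animal, which exceeds the 95% limit of Dixon's test for 5 samples. It was the 1 animal to do so in the 12 sets of 5 values that the 6 genes give, and chance flags about 1 in 20 sets.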

How the results depend on the processing

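Over 20 alternatives for each of the 6 genes, none gave an adjusted p under 0.05 (limma, lowest 0.794), and *ACOX2*, *HSD17B4*, *ACAA1* and *CRAT* kept their sign in all. *ABCD3* changed sign with the brightest probe set alone (0.081) and without H2 (0.083), its range on leaving out single animals being -0.38 to 0.083. *SCP2*, near 0, changed sign with array weights (-0.0079) and without H1 (-0.018), H5 (-0.016), L3 (-0.049) or L4 (-0.0085), range -0.049 to 0.029. All 6 kept their sign under quantile normalization and under centring on the array median. An unadjusted p under 0.05 was reached by *ACAA1* with array weights (H minus L -0.25) and without L3, and by *ACOX2* with the *GAPDH* covariate and without H4 or L1. With the brightest probe sets the median difference of the 6 was 0.042, and with single animals left out it ran from -0.16 without L3 to 0.05 without H2, and their median r from -0.09 without L3 to 0.14 without H2. The number of genes with an unadjusted p below 0.05 ran from 90 to 281 when single animals were left out (213 without H2, 281 without L2), and probe sets from 237 without L4 to 685 without L2 (617 without H2), against 125 and 363. Same-numbered animals did not deviate together (r from -0.24 to 0.28 over genes, 1 of 5 H animals closest to its own number), and with the animal number as a block 140 genes had an unadjusted p under 0.05, 0 had an adjusted one, and no call changed. Signals close to the lowest value or to the top of the range bound what the arrays can show.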
